A study of Mus musculus with 4 samples.

Results

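The comparison described here sets the array of cells given aldosterone after spironolactone against the array of cells given ethanol, and describes which transcripts still differed from the vehicle when the antagonist had been present. It uses 2 of the 4 arrays of the series, and the other arrays appear only beside it. The cells were mDCT, an immortalised mouse line derived from the distal convoluted tubule of the kidney, transiently transfected with a 3xFLAG-tagged human mineralocorticoid receptor (hMR). On the first array the cells had 5 µM spironolactone for 2 h and then 100 nM aldosterone for 3 h, starting 48 h after transfection. On the ethanol array both additions were ethanol, with the same times and the same transfection. The other arrays held cells given 1 nM or 100 nM aldosterone for 3 h without the antagonist. Each array was made from 250 ng of total RNA of a single line. No array had spironolactone without aldosterone and none had untransfected cells, so the antagonist, the hormone and their combination cannot be told apart from this pair, and all arrays carry the overexpressed receptor. For each of 18194 genes with its own symbol the brightest probe set, by mean log2 signal over all 4 arrays, was taken. The 11058 genes whose mean signal was at or above the median over all probe sets, 55.9, entered. There was 1 array per treatment and no replicate, so every value below is a difference between arrays, without an error or a test.

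Aldosterone is the adrenal steroid that makes the distal nephron retain sodium and excrete potassium. It binds the mineralocorticoid receptor, a nuclear receptor that moves to the nucleus and acts on genes through hormone response elements, which it shares with the glucocorticoid receptor. Spironolactone competes for the ligand pocket of the mineralocorticoid receptor and holds it in a form that recruits coactivators poorly. Steroid target genes of the distal nephron include Sgk1, Per1 and Tsc22d3.

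The arrays were on one scale, with a mean signal of 500.003 on each after leaving out 2% of probe sets at either end, and medians between 58.9 and 61.7. Markers of the distal convoluted tubule were sparse: 5 of the 9 on the array entered, none of them at or above a signal of 419.8, and Slc12a3, the thiazide-sensitive cotransporter that defines the segment, had signals of 3.93, 17.2, 12.1 and 4.35 in the order ethanol, 1 nM, 100 nM and spironolactone. The summed signal of those 9 markers was 620.2, 689.8, 656 and 526 in the same order, lowest with spironolactone. Of 10 epithelial markers 4 entered, Pax8, Cdh16, Epcam and Grhl2, and the spironolactone array was the lowest of the 4 arrays at each of them in the probe set used. In the other Epcam probe set it was the highest, with a difference of 0.53 against -0.35. The list summed to 3899, 3589, 3751 and 3446. Cdh1 had signals between 5.21 and 21.5, but Cdh16 lay between 2406 and 2667 and Pax8 between 744 and 909. Of 15 mesenchymal markers 8 entered, and the 15 summed to 40156, 39205, 41255 and 40816. Among them the filament Vim lay between 21509 and 23768 and Cdh2 between 9736 and 10772.5. Acta2 lay between 62.0 and 109 and Tagln between 134 and 198. Of the markers of other cells 5 of 7 entered for the proximal tubule, 1 of 6 for the principal cell, 0 of 5 for the intercalated cell, 2 of 7 for endothelium and 1 of 6 for leukocytes, and the leukocyte markers summed to no more than 226 on any array. The part of these markers in the differences below was not tested. In RNA from whole cultures, fewer cells of a kind and less RNA per cell cannot be told apart. The mouse receptor gene Nr3c2 did not enter, with signals of 2.35, 21.8, 4.44 and 15.1, and its mouse probe set does not check the transfected human receptor. The glucocorticoid receptor gene Nr3c1, whose product binds the same response elements, had signals of 1959, 1998, 1708 and 1871, and its other probe sets differed between spironolactone and ethanol by 0.15, -0.36, -0.57 and 0.07.

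Most genes had nearly the same signal with aldosterone after spironolactone as with ethanol. The median difference was -0.01 on the log2 scale, and 46 genes (0.416%) were at least 2-fold higher and 50 (0.452%) at least 2-fold lower. When signals under 55.9 were first raised to that value, 20 (0.181%) were higher and 23 (0.208%) lower. The differences were mainly in dim genes. Of the 6937 genes at or above the 75th percentile of signal, 419.8, called bright below, 1 was at least 2-fold higher (0.0144%) and 2 were lower (0.0288%), against 45 (1.09%) and 48 (1.16%) of the 4121 dimmer ones. At 1.5-fold, a log2 difference of about 0.58, the counts were 240 higher (2.17%) and 225 lower (2.03%) over all genes. They were 14 (0.202%) and 13 (0.187%) among bright genes, and 226 (5.48%) and 212 (5.14%) among dimmer ones. The central 95% of bright genes differed by -0.29 to 0.29, and that of dimmer genes by -0.77 to 0.79.

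**Figure D1:**
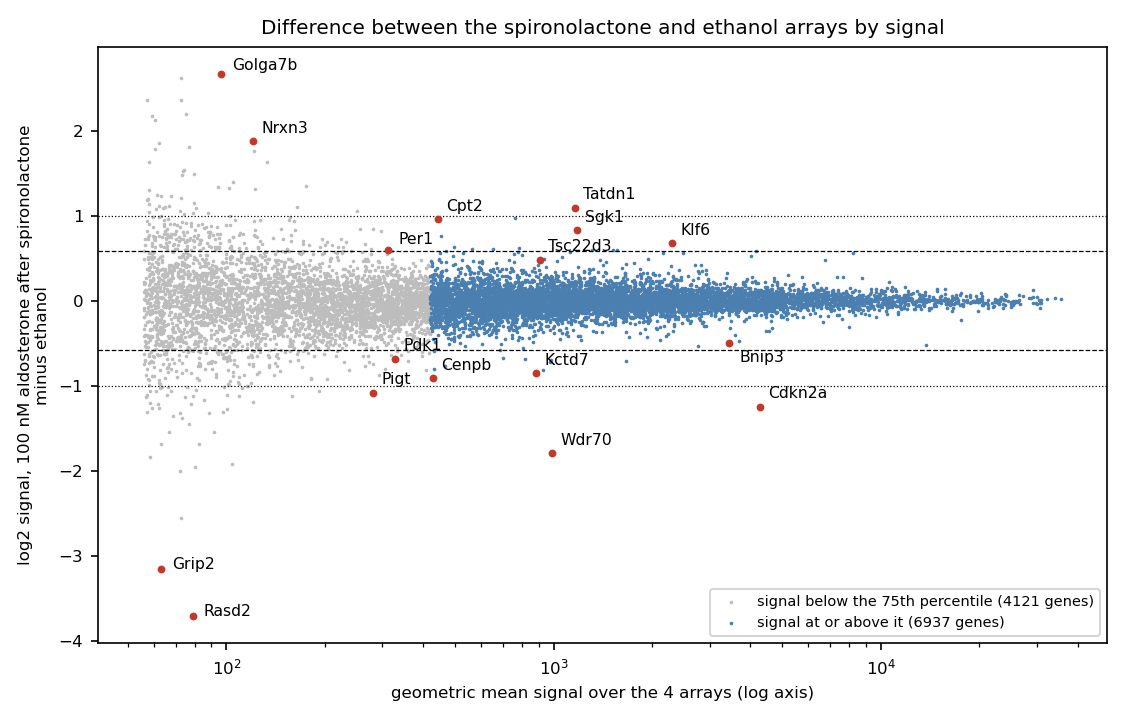
Log2 difference between the spironolactone and ethanol arrays (vertical axis) against geometric mean signal over the 4 arrays (horizontal log axis), 1 point per entered gene. Dashed lines mark 1.5-fold and dotted lines 2-fold; the spread narrows from the 4121 dimmer genes in grey to the 6937 bright genes in blue, where Wdr70 and Cdkn2a lie below the lower dotted line and Tatdn1 above the upper.

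Set beside the other pairs of arrays, the pair of spironolactone and ethanol was not the most different. Bright genes past 1.5-fold in either direction numbered 27 (0.389%) in this pair. There were 29 (0.418%) between 100 nM aldosterone and ethanol and 44 (0.634%) between 1 nM and ethanol, both of which share the ethanol array with it. Between spironolactone and 100 nM there were 32 (0.461%), between both doses 32 (0.461%), and between spironolactone and 1 nM 17 (0.245%), the fewest of the 6 pairs. The standard deviation of the bright differences was 0.144 for spironolactone against ethanol, 0.136 for spironolactone against 1 nM and between 0.146 and 0.154 for the other 4 pairs. None of these counts can be set against the count that a repeat of one treatment would give.

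Several genes known to be induced by corticosteroids, Sgk1, Per1, Tsc22d3 and Klf9 among them, had a higher signal on the spironolactone array than on the ethanol array. Sgk1, the kinase that keeps the epithelial sodium channel at the cell surface, had a signal of 801 on the ethanol array, 935 at 1 nM aldosterone, 1810.4 at 100 nM and 1424 after spironolactone. Both arrays with 100 nM hormone were high and both others low. Against ethanol it was 1.78-fold higher with spironolactone, a log2 difference of 0.83, the 4th highest of the 6937 bright genes; the difference of the 100 nM array from the same ethanol array was 1.18. The palindromic corticosteroid receptor element, GNACA and then TGTNC with any 3 bases between them and N for any base, was searched in windows from 250 bases before to 50 after each RefSeq gene start. It reads alike on both strands. Its letters occurred in 1 of the 6 windows of Sgk1, chr10:21993640-21993939 on the plus strand of GRCm38.p6, with the match in capitals starting at position -188 from the gene start. That window is shown because Sgk1 is the bright gene at which both 100 nM arrays stood apart:
Sgk1: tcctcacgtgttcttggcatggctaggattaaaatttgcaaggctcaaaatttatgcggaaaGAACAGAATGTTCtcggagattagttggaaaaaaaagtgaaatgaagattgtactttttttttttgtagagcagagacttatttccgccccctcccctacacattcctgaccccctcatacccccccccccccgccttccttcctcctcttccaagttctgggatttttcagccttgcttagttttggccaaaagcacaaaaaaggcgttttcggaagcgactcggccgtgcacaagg
The letters were present in 0.537% of 27025 genes, and in 3 of the 25 steroid responsive genes that had a window. Per1, also past 1.5-fold, had 0 matches in its 2 windows, and Tsc22d3, Klf9 and Fkbp5 had 0 as well. Entered members with the letters numbered 2, Sgk1 and Mt1, of which Mt1 was lower than with ethanol. Those without the letters numbered 19, of which 7 were lower, with a median of 0.02. The remaining entered members, Angptl4 among them, had no window. A match describes the sequence and does not show a bound site.

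Per1, a circadian repressor that corticosteroids induce, had signals of 231 on the ethanol array, 224 at 1 nM aldosterone, 527 at 100 nM and 349 after spironolactone. As at Sgk1, both 100 nM arrays lay above the rest and spironolactone was the lower of them. The difference from ethanol was 0.60 with spironolactone and 1.19 without it. Tsc22d3, the gene of the anti-inflammatory leucine zipper protein GILZ, had signals of 711, 703, 1365 and 994 in the order named above, which all lists of 4 signals follow. It too was high on both 100 nM arrays, by 0.48 with spironolactone, and its other probe sets at or above the filter differed by 0.41 and 0.44. Klf9, a steroid-induced transcription factor, had 1349, 1393, 1844 and 1640.3, a difference of 0.28, and 5 of its 6 probe sets were higher than with ethanol.

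Fkbp5, a co-chaperone of steroid receptors that steroids induce, did not have both 100 nM arrays above the rest. Its signals were 1315 on the ethanol array, 1880.3 at 1 nM aldosterone, 1735 at 100 nM and 1414 after spironolactone, so the array with spironolactone lay close to ethanol and both arrays with aldosterone alone lay above. The difference was 0.11, and 0.32 in the second probe set. The focal adhesion gene Tns1 had 228, 268, 372 and 265, and the spironolactone array, at 0.22, lay beside the 1 nM array rather than the 100 nM array. Rasl12, a small Ras-like GTPase, had 157, 221, 249.9 and 197, lowest with ethanol, and differed by 0.33 with spironolactone.

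As lists, the nephron genes stood above ethanol and the wider steroid list did not. Both lists, like all gene lists here, were chosen with earlier results of these data known. Their counts are therefore not independent of those results. Of 16 entered genes listed as induced by aldosterone in the nephron, 14 were higher with spironolactone than with ethanol and 2 lower. Of all entered genes 48.2% were higher and 51.8% lower. The 16 are called the nephron list. The median of the nephron list was 0.28, beside -0.01 for all genes. Of its members 3 were at least 1.5-fold higher, Sgk1, Per1 and Scnn1a, and 0 lower. Against the same ethanol array the list's median was 0.39 with 100 nM aldosterone and 0.11 with 1 nM. Scnn1a, the alpha subunit of the epithelial sodium channel, was dim, with signals of 58.2, 89.3, 87.5 and 99.2, lowest with ethanol. The 25 entered members of the steroid responsive list, 4 of which are entered members of the nephron list too, had a median of 0.02, with 15 higher and 10 lower. At 1.5-fold 3 were higher (Sgk1, Per1 and Angptl4) and 1 lower (Irs2). Angptl4, a secreted inhibitor of lipoprotein lipase, had signals of 77.3, 66.3, 80.0 and 117 and was high on the spironolactone array only. Irs2, an insulin receptor substrate, had 152, 129, 121 and 89.0, highest with ethanol and lowest with spironolactone.

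**Figure D2:**
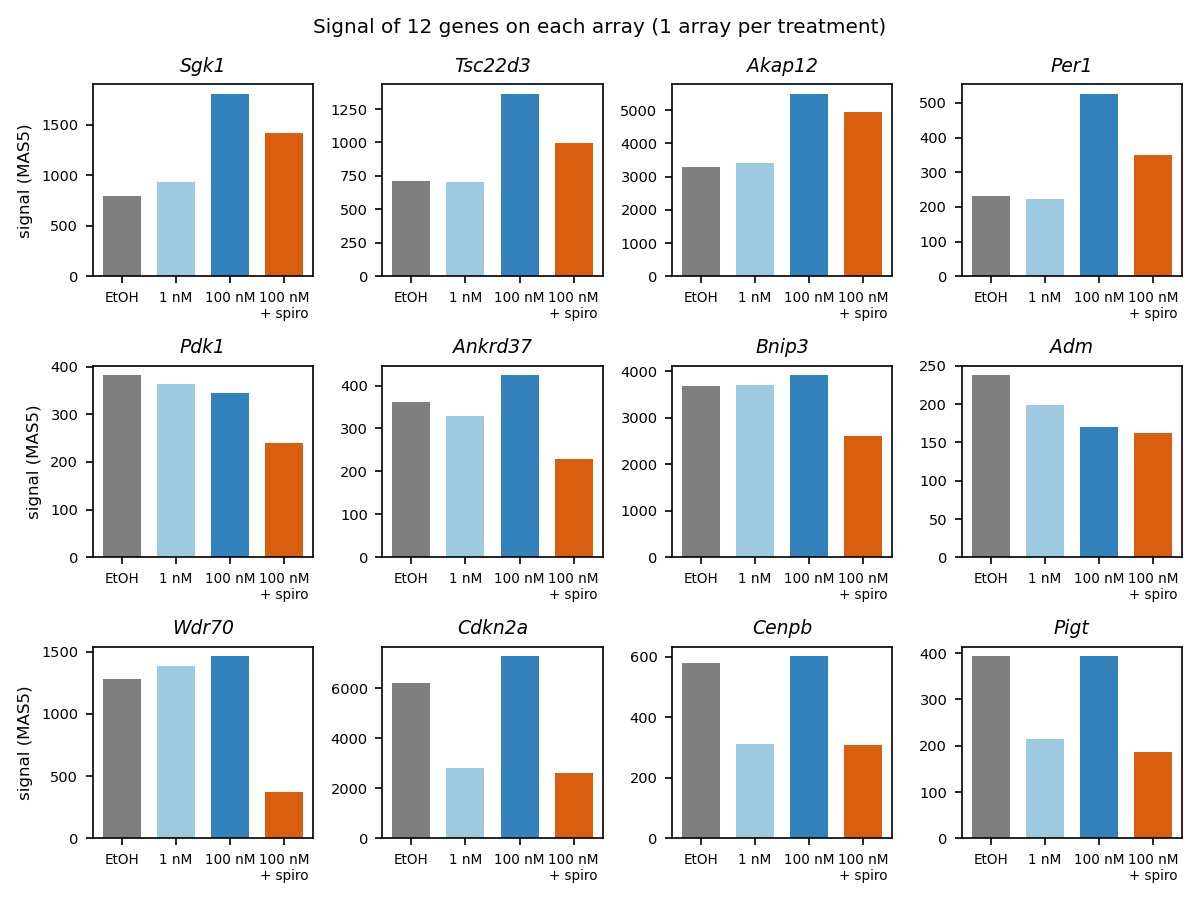
MAS5 signal (vertical axis, starting at 0) on each of the 4 arrays for 12 genes, 1 bar per array and no error bars because each treatment had 1 array. Sgk1, Tsc22d3, Akap12 and Per1 are high on both 100 nM arrays, Pdk1, Ankrd37 and Bnip3 are low on the spironolactone array, and Cdkn2a, Cenpb and Pigt are low on the 1 nM and spironolactone arrays.

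To avoid using 1 array as the reference for all others, genes were counted at which an array, or a pair of arrays, lay at least 1.5-fold past all the rest. Both arrays with 100 nM hormone lay above ethanol and 1 nM at 1 bright gene, Sgk1 (0.0144%), by 0.61 on the log2 scale, and below them at 0 bright genes. Over all entered genes they lay above at 19 (0.172%) and below at 9 (0.0814%), or at 16 (0.145%) and 7 (0.0633%) with dim signals raised to 55.9. Counted alike, the 1 nM and 100 nM arrays lay above ethanol and spironolactone at 28 of 11058 entered genes and below at 11. With dim signals raised these counts were 19 and 9, and among bright genes 0 and 0. The genes at which both 100 nM arrays stood apart differed from ethanol and 1 nM with and without the antagonist. The largest gaps above were at Nrxn3, a synaptic adhesion molecule, with signals of 67.0, 71.2, 182 and 246, and at Adam22, a neuronal membrane protein, with 75.3, 71.1, 222 and 188. They were followed by Smim27, Pth2, Gpr162, Tcl1b4, the urate transporter Slc22a12 and Nkx2-4, whose signals did not pass 156 on any array. The largest gap below was at the organic anion transporter Slco2b1, with 147, 166, 44.1 and 38.0. Rom1, a photoreceptor disc protein, followed with 158, 147, 76.4 and 80.2, and then Neto1, the epithelial transcription factor Grhl2, Aanat, and the peptide transporter Slc15a2, whose other probe set differed from ethanol by 0.12 against -0.64. The lipase Dagla (312, 222, 129.7 and 149) and Grip2 came next in size but their gaps were under 1.5-fold, so they are not in the counts. All 16 of these genes were dim. Akap12, a scaffold of protein kinase A, was bright and had the same order as Sgk1, with 3284, 3396, 5495 and 4929.7 and a difference of 0.59. Ccn2, a matrix-associated growth factor, had 3342, 2887, 5602 and 4835 and 0.53. Akap12 fell outside the rule by which genes were named and was chosen after its values were seen.

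The spironolactone array stood apart from all 3 others at 0 bright genes above and at 3 below (0.0432%), Wdr70, Ces5a and Ap1b1. Over all entered genes it did so at 18 above (0.163%) and 73 below (0.66%), or 33 below (0.298%) with dim signals raised. The ethanol array, counted alike, stood apart at 19 above (0.172%) and 79 below (0.714%), or 37 below (0.335%). The 100 nM array stood apart at 2 bright genes above (0.0288%) and 4 below (0.0577%). The largest gaps above were at the photopigment Opn4 (50.7, 57.2, 61.1 and 119), Arhgap39 (210.0, 191, 224 and 436), the cell cycle factor E2f4 (57.9, 67.2, 67.0 and 117), Prss55, Epb41l4b, Pga5, Slc25a35 and Snx22. The other probe set of Arhgap39 that passed the filter differed from ethanol by -0.59, against 1.06 in the one used. Below lay Wdr70, the muscle filament Des (137, 164, 156 and 60.3), Rasd2 (174, 118, 144 and 13.3), Smyd1, the kinase Dyrk1b, Igll1, Pcif1 and Katnal2. The other probe sets of Smyd1 and Katnal2 that passed the filter differed by -0.51 and 0.07, against -1.02 and -1.12.

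At 5 bright genes (0.0721%) the 1 nM and spironolactone arrays both lay at least 1.5-fold below ethanol and 100 nM, and at 0 above. Over all entered genes they lay below at 15 (0.136%) and above at 12 (0.109%), or at 12 and 8 (0.0723%) with dim signals raised. The bright genes were Cdkn2a, Cenpb, Marf1, Pithd1 and Tmem14c. The higher dose of hormone is on both sides of this split. Cdkn2a, which encodes the cell cycle inhibitors p16INK4a and p19ARF, had a signal of 6209.5 on the ethanol array, 2812 at 1 nM aldosterone, 7295 at 100 nM and 2616 after spironolactone. The centromere protein Cenpb had 579, 310.4, 603 and 308, and the protein with a PITH domain Pithd1 had 2166, 1329.9, 2015 and 1320.2. Both were alike on the paired arrays. In Marf1, with 612, 332, 639 and 359, the other probe sets differed from ethanol by -0.37 and -0.92 with spironolactone, and that of Pithd1 by 0.51. The split itself requires the spironolactone array to lie at least 1.5-fold below ethanol. By that rule these 5 genes recur among the bright genes lower than ethanol described below. The 100 nM array without antagonist differed from ethanol by 0.23 at Cdkn2a, 0.06 at Cenpb, 0.06 at Marf1, -0.10 at Pithd1 and -0.01 at Tmem14c. Whether the split goes with the treatments or with the arrays was not tested.

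**Figure D3:**
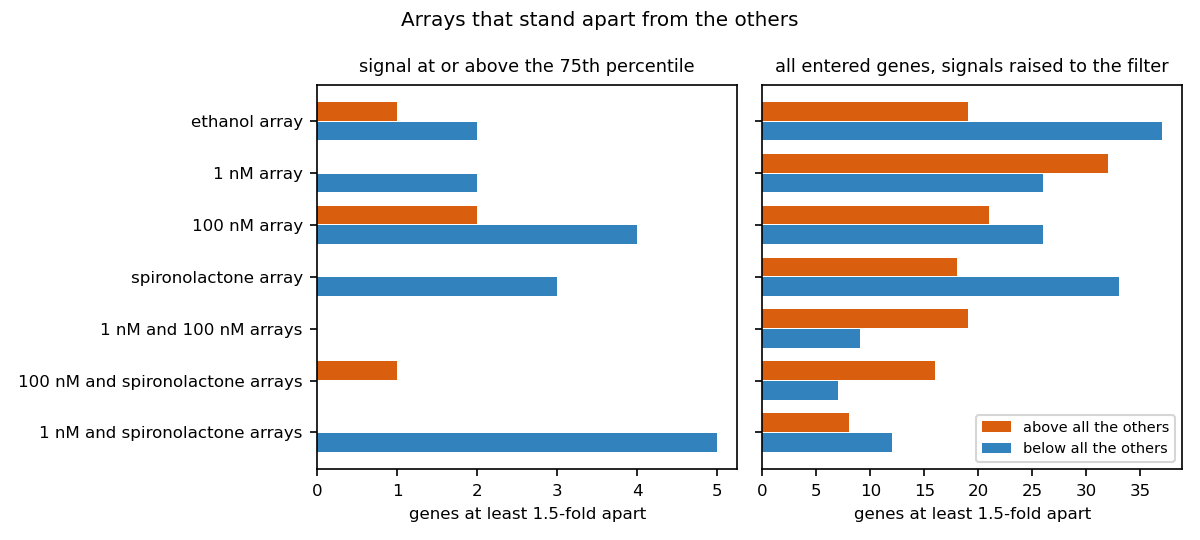
Number of genes (horizontal axes) at which the named array or pair of arrays lies at least 1.5-fold above (orange) or below (blue) all the other arrays, for bright genes on the left and for all entered genes with signals under 55.9 raised to it on the right. Among bright genes the 100 nM and spironolactone arrays lie together above the others at 1 gene, and the 1 nM and spironolactone arrays lie together below at 5.

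The 14 bright genes at least 1.5-fold above ethanol were led by Tatdn1, a putative nuclease gene, with signals of 683, 1501, 1218 and 1461. Ethanol was low and the 3 others high, by 2.14-fold with spironolactone, but the other probe sets of Tatdn1 differed by -0.26, -0.33, -0.13 and 0.18. Tcl1b3, of a family of near-identical copies, had 502, 993, 697 and 985, a difference of 0.97. Among bright genes at least 1.5-fold from ethanol with spironolactone, Tcl1b3, Tatdn1, Top3b, Kctd7 and Ces5a had probe sets of a class marked by the manufacturer. Probes of that class may also bind other transcripts. Other genes named here had such probe sets too, Pigt, Arhgap39 and Adm among them. Cpt2, the inner membrane carnitine palmitoyltransferase of fatty acid oxidation, had 261, 612, 475 and 509 and a difference of 0.96, again with ethanol below the 3 arrays that had hormone. After Sgk1 came the junction scaffold Cask (0.76), the transcription factor Klf6 (0.68), the topoisomerase Top3b (0.63), Zbtb20 (0.62), Tcim (0.61) and the tyrosine kinase Abl1 (0.60). Desi1, a SUMO isopeptidase, differed by 0.60, the ATP synthase assembly factor Fmc1 by 0.60, the ubiquitin ligase Cnot4 by 0.60 and Akap12 by 0.59.

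Zbtb20, a zinc finger repressor, was higher than with ethanol in 7 of its 8 probe sets. Its brightest probe set had 635 on the ethanol array, 838 at 1 nM aldosterone, 728 at 100 nM and 975 after spironolactone, and the 7 others at or above the filter differed from ethanol by 0.36, 0.70, 0.54, 0.26, 0.38, 1.02 and -0.02. The spironolactone array was the highest of the 4 at 7 of the 8. By contrast Klf6, an immediate early transcription factor, had 1693, 2424, 2552 and 2707 in the probe set used, while its 4 others differed by 0.02, 0.08, -0.03 and 0.30. The other probe sets of Cask differed by 0.18, 0.08 and -1.25. That of Abl1 differed by -1.20, the opposite direction to the probe set used. The other probe set of Top3b differed by -0.28 and that of Tcim by 0.00. The others of Cnot4 differed by 0.08, -0.14, 0.03 and -0.27 and those of Desi1 by -0.42 and -0.03, and Akap12, Fmc1 and Tcl1b3 had no other.

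Of the 13 bright genes at least 1.5-fold below ethanol, Wdr70, which encodes a WD repeat protein, was the lowest. Its signals were 1279 on the ethanol array, 1382 at 1 nM aldosterone, 1469 at 100 nM and 368 after spironolactone, a 3.47-fold difference found on the spironolactone array alone. The other Wdr70 probe set, with signals of 799, 706, 685 and 730.0, differed by -0.13. Next were Cdkn2a (-1.25, 2.37-fold), Cenpb (-0.91) and Kctd7 (-0.85). Kctd7, related to potassium channel tetramerisation domains, had 1381, 730.2, 785 and 767, high with ethanol and alike on the 3 others, and its other probe set differed by -0.17. Tmem259, a membrane protein of the endoplasmic reticulum, differed by -0.81 and was lowest with spironolactone, at 1262, 957, 860.1 and 718. The carboxylesterase Ces5a (464, 598, 466 and 265) and the clathrin adaptor subunit Ap1b1 (1052, 1176, 1153 and 649) were low on the spironolactone array alone. The rest were Marf1, Tmem14c, Pithd1, the signal recognition particle receptor Srpr (-0.68, but 0.48 in its other probe set), the kinase Cdc42bpg (-0.67) and Parp11 (-0.59). Cnot4 and Parp11 are named to complete these sets and were chosen after their values were seen.

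Other probe sets of a gene read the same RNA, so they bear on the probe and not on the treatment. Of the 5220 genes with at least 2 probe sets at or above the filter, all probe sets were 1.5-fold higher at 1 (0.0192%) and lower at 2 (0.0383%). By the same rule and against the same ethanol array, 4 (0.0766%) were higher and 1 (0.0192%) lower with 100 nM aldosterone, and 4 (0.0766%) and 3 (0.0575%) with 1 nM. The lower genes were Pigt and Pdk1. Pigt, a subunit of the transamidase that attaches GPI anchors, had 393 on the ethanol array, 215 at 1 nM aldosterone, 395 at 100 nM and 186 after spironolactone, and its other probe set differed by -1.71 where the one used differed by -1.08. It was low on the 1 nM and spironolactone arrays. The Pigt probe set used is of the class whose probes may also bind other transcripts. Pdk1 is described with the hypoxia genes below. The higher gene was Prkar1b, a regulatory subunit of protein kinase A, which was dim, with 30.7, 91.5, 114 and 108; ethanol was the low array.

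The next brightest probe set seldom shared a 1.5-fold difference. Of 29 genes that were higher by the probe set used and had another, 2 were also 1.5-fold higher by the next brightest, and 15 had the same sign. Of 35 that were lower, 2 were 1.5-fold lower by the next brightest and 19 had the same sign. For bright genes these counts were 0 of 9, with 6 of the same sign, and 0 of 5, with 3 of the same sign. By the next brightest probe set 2.62% of all 5220 genes were 1.5-fold higher and 3.07% lower, as were 1.84% and 2.08% of the 4128 bright ones. The median difference of that probe set was 0.00 for the 29 higher genes and -0.13 for the 35 lower ones, beside -0.01 over all.

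**Figure D4:**
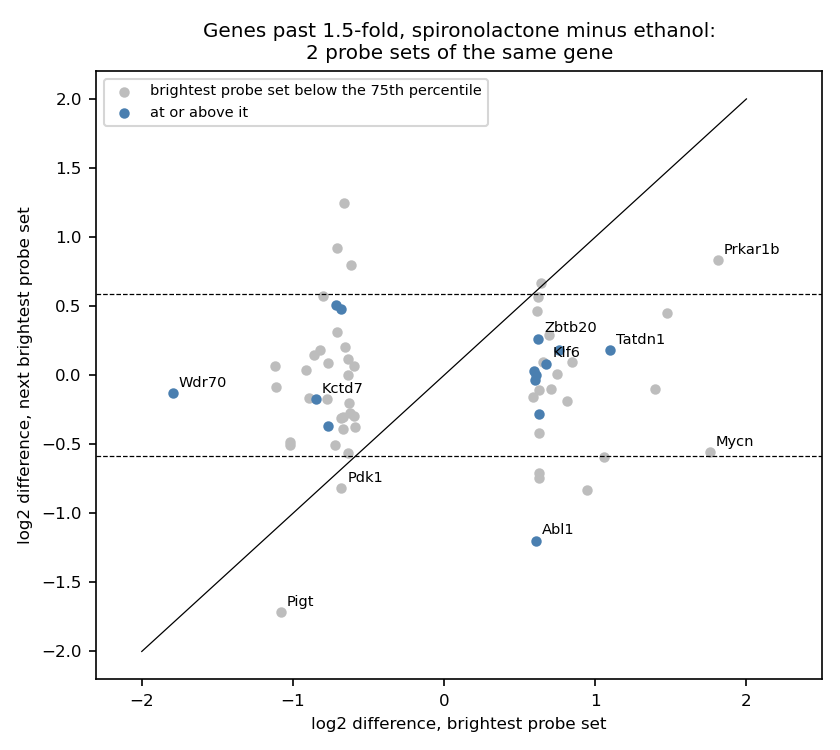
Log2 difference, spironolactone minus ethanol, of the brightest probe set (horizontal axis) and the next brightest probe set at or above the filter (vertical axis), for the 64 genes past 1.5-fold by the first that had both. The diagonal marks equal differences and dashed lines 1.5-fold; 4 genes, Prkar1b, Pdk1 and Pigt among them, lie past 1.5-fold the same way on both axes, whereas Wdr70 and Tatdn1 lie near 0 on the vertical axis.

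Genes of hypoxia and glycolysis were lower with aldosterone after spironolactone than with ethanol. Of 31 that entered, of a list of 35, 26 were lower and 5 higher, where 51.8% and 48.2% of all entered genes were, and their median was -0.16 beside -0.01. The spironolactone array was the lowest of the 4 at 20 of the 31 and the highest at 3, where it was the lowest at 25% and the highest at 24.0% of all genes. The differences were small: 2 of the 31 passed 1.5-fold, both lower (Pdk1 and Ankrd37), and 0 were that much higher. Against the same ethanol array the list's median was -0.04 with 100 nM aldosterone and -0.08 with 1 nM. Of 17 members with at least 2 probe sets at or above the filter, 15 had every one of them lower and 0 had every one higher, where 22.2% and 19.3% of all 5220 such genes did. Hypoxia-inducible factors are transcription factors that are degraded when oxygen is plentiful and that drive glucose uptake, glycolysis and vessel growth when it is scarce.

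Pdk1 is a mitochondrial kinase that inhibits pyruvate dehydrogenase. Its signal was 383 on the ethanol array, 363 at 1 nM aldosterone, 344 at 100 nM and 239 after spironolactone. It was low on the spironolactone array, a difference of -0.68, and the other probe sets differed by -0.82 and -0.60. Ankrd37, a hypoxia-inducible ankyrin repeat gene, had 362, 330.1, 425 and 229 and a difference of -0.66. The mitophagy receptor Bnip3 had 3694, 3718, 3932 and 2615, bright and low on the spironolactone array alone, a difference of -0.50. Adm, the vasodilator peptide adrenomedullin, had 238, 199, 170.1 and 162, highest with ethanol, but its other probe set differed by 0.20. Ddit4, an inhibitor of mTORC1 induced by hypoxia and by glucocorticoids, had 4927, 4105, 5120.1 and 3844, a difference of -0.36, low with 1 nM and lowest with spironolactone.

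Smaller differences ran through the list. The collagen prolyl hydroxylases P4ha1 and P4ha2 differed by -0.29 and -0.22, and the oxygen sensors Egln1 and Egln3 by -0.24 and -0.06. The glucose transporter Slc2a1 differed by -0.11, and its other probe sets by -0.21 and -0.08. Of the glycolytic enzymes Pgk1 differed by -0.22, Pfkl by -0.21, Pfkp by -0.16, Aldoa by -0.13, Ldha by -0.12, Tpi1 by -0.08 and Gapdh by -0.09. The vessel growth factor Vegfa differed by -0.12, and the stress gene Ndrg1 by -0.17, with -0.22, -0.11, -0.25 and -0.09 in its others. The 5 members above ethanol were the bifunctional enzymes Pfkfb3 (0.25) and Pfkfb4 (0.18), Hk2 (0.03), Pgam1 (0.03) and Higd1a (0.02), whose other probe sets differed by -0.31 and -0.79. Members beyond Pdk1, Ankrd37, Adm and Bnip3 are named to show the list's range and were chosen after their values were seen. Culture density and medium, which the labels do not give per array, were not tested.

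The core of the hypoxia response element, ACGTG, was searched on both strands of the same promoter windows. It was present in 22 of the 33 members of the list that had a window, and in 21.8% of all 27025 genes. Entered members with it numbered 21, of which 17 were lower, with a median of -0.13. Those without it numbered 9, of which 8 were lower, with a median of -0.18, and 1 entered member had no window. The windows of the 2 members past 1.5-fold are shown to set one with the core beside one without: Ankrd37 at chr8:45999801-46000100 on the minus strand, with 2 matches in capitals at positions -241 and -6, and Pdk1 at chr2:71872974-71873273 on the plus strand, 1 of 2 windows, in neither of which these letters occur. Both are written 5′ to 3′ on the gene's strand, from RefSeq, build GRCm38.p6:
Ankrd37: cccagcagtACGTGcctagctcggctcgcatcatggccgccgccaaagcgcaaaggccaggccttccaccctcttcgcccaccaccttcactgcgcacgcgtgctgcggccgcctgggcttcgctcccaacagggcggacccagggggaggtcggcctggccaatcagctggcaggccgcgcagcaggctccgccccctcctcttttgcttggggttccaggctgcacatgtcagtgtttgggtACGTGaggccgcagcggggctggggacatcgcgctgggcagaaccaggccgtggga
Pdk1: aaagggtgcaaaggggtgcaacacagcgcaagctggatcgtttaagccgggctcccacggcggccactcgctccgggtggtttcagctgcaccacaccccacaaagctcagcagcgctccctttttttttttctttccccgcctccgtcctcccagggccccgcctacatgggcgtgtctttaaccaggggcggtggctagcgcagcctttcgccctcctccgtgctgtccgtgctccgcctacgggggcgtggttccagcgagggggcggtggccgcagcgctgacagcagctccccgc
Elements outside these windows were not searched, and nothing is read from a window without a match.

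Of 19 entered members of the NF-kB and cytokine list 14 were higher than with ethanol, where 48.2% of all entered genes were, and their median was 0.10 beside -0.01. The spironolactone array was the highest of the 4 at 11 and the lowest at 1, where it was so at 24.0% and 25% of all genes. With the median over each gene's probe sets the list's median was again 0.10. Of 9 members with at least 2 probe sets at or above the filter, 3 were higher in every one and 4 lower. The 4 were Irak1, Nfkb2, Nfkbiz and Tnfaip3. Over all 5220 such genes 19.3% were higher in every one and 22.2% lower. By signals as deposited 1 was 1.5-fold higher, Il1b, and 0 lower, beside 2.17% and 2.03% of all genes. Il1b, the cytokine interleukin-1 beta, was dim, with 41.3, 61.3, 73.0 and 81.9, and with the ethanol signal raised to 55.9 it was at least 1.47-fold higher, under 1.5-fold. The neutrophil chemokine Cxcl1 had 915 on the ethanol array, 874 at 1 nM aldosterone, 1094 at 100 nM and 1268 after spironolactone, a difference of 0.47, and its other probe sets differed by 0.29 and 0.27. The monocyte chemokine Ccl2 had 1947, 1972, 1782 and 2428 and was highest with spironolactone, by 0.32. Vcam1, an adhesion molecule for leukocytes, had 63.3, 109.5, 76.6 and 79.3 and was highest with 1 nM. Against the same ethanol array the list's median was -0.06 with 100 nM aldosterone and -0.10 with 1 nM.

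Immediate early genes were divided. Of 26 that entered 11 were higher and 15 lower, with a median of -0.02. At 1.5-fold 2 were higher, Egr3 and Klf6, and 0 lower, beside 2.17% and 2.03% of all genes. Egr3, a zinc finger factor, had 57.5, 126, 134 and 115, low with ethanol and high on the 3 others. Srf, the serum response factor, had 523, 597, 597 and 713, highest with spironolactone, and was higher in each of its probe sets. Egr1, which belongs to the same family as Egr3, had 4131, 3597, 3519.9 and 3137, highest with ethanol and lowest with spironolactone, a difference of -0.40. In the ERK feedback list, with 0 of 14 past 1.5-fold, Ccnd1, the cyclin that opens the cell cycle, was highest with spironolactone at 2701, 2879, 2699 and 3466, and its other probe sets differed by -0.15 and 0.09. The ETS factor Etv5 had 488, 436, 434 and 359, lowest with spironolactone, but its other probe set differed by 0.46, with spironolactone highest.

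Genes of ion transport, insulin signalling and stress gave at most 1 member a list past 1.5-fold in either direction, where 2.17% of all entered genes were higher and 2.03% lower, so 1 member of a list of this size is near that background. Of 17 distal ion transport genes 1 was higher, Scnn1a, and 0 lower, with a median of 0.04; Cnnm2, a magnesium transport protein, had 142, 197, 199 and 208, lowest with ethanol, and the kinase Wnk4 had 207, 247, 209 and 159, lowest with spironolactone. Of 21 insulin signalling and lipid genes 1 was higher, Cpt2, and 1 lower, Irs2, with a median of -0.02; the kinase Akt1 had 584, 487, 487 and 433, lowest with spironolactone. Of 27 genes induced by unfolded proteins or by lack of amino acids 0 were higher and 1 lower, Sesn2, a stress-induced inhibitor of mTORC1, with 342, 249.6, 252 and 217. The median there was -0.04. Its other probe set differed by 0.20, with spironolactone highest. The cystine transporter Slc7a11 had 234, 242, 181 and 166, a difference of -0.49, but 0.87 in its other probe set, where spironolactone was the highest array. Of 25 interferon response genes 1 was higher, Irf7, with 112, 113, 208 and 186, and 1 lower, Stat2, with 115, 64.9, 96.7 and 61.0. Irf7 was high on both 100 nM arrays and Stat2 low on the 1 nM and spironolactone arrays, but the other Stat2 probe set differed by 0.04. In the matrix list 1 of 18 was higher, the gelatinase Mmp2, by at least 1.65-fold, and in the clock list 1 of 16, Per1. The lists of TGF-beta and BMP, cholesterol synthesis, oxidative defence, heat shock, tight junction, S phase, G2 and mitosis and housekeeping genes had 0 members past 1.5-fold, and the p53 targets had 1, Sesn2.

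Spironolactone is known to act outside the mineralocorticoid receptor as well. It is a ligand of the xenobiotic receptor PXR in rodents and lowers the protein of XPB, the TFIIH helicase encoded by Ercc3, through degradation. Of 21 xenobiotic receptor targets on the array 8 entered, with a median of -0.03 and 0 past 1.5-fold. Cyp3a11, a leading PXR target of the liver, did not enter, with signals of 16.8, 2.85, 20.4 and 24.1, nor did the PXR gene Nr1i2, with 32.5, 25.9, 32.4 and 24.9. Cyp1b1 had 309.6, 329, 333 and 362, highest with spironolactone, a difference of 0.23. Of 9 TFIIH genes 0 passed 1.5-fold, with a median of 0.01. Ercc3 had 743, 798, 762 and 693, lowest with spironolactone, a difference of -0.10, and Ercc2, the other helicase of the complex, had 246, 216, 211 and 202 and -0.28, with -1.11 in its other probe set. These are levels of RNA and do not bear on the protein.

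Large sets of housekeeping machinery had medians near 0. The 88 entered genes of the respiratory chain and ATP synthase, the 76 of the mitochondrial ribosome and the 41 of the cytosolic ribosome had medians from -0.01 to 0.00 and 0 members past 1.5-fold. The mitochondrial ribosomal protein gene with the largest difference, Mrpl33, had 1750.0, 2349.6, 3280.2 and 2134, lowest with ethanol, and Rpl39 of the cytosolic ribosome had 233, 303, 235 and 298. Despite that median the spironolactone array was the highest of the 4 at 16 of the 41 cytosolic ribosomal protein genes and the lowest at 1, where it was so at 24.0% and 25% of all entered genes. Against ethanol the list's median was -0.06 with 1 nM aldosterone and -0.02 with 100 nM. The 45 such genes on the array summed to 850879, 815804, 833816 and 848792, highest with ethanol.

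**Figure D5:**
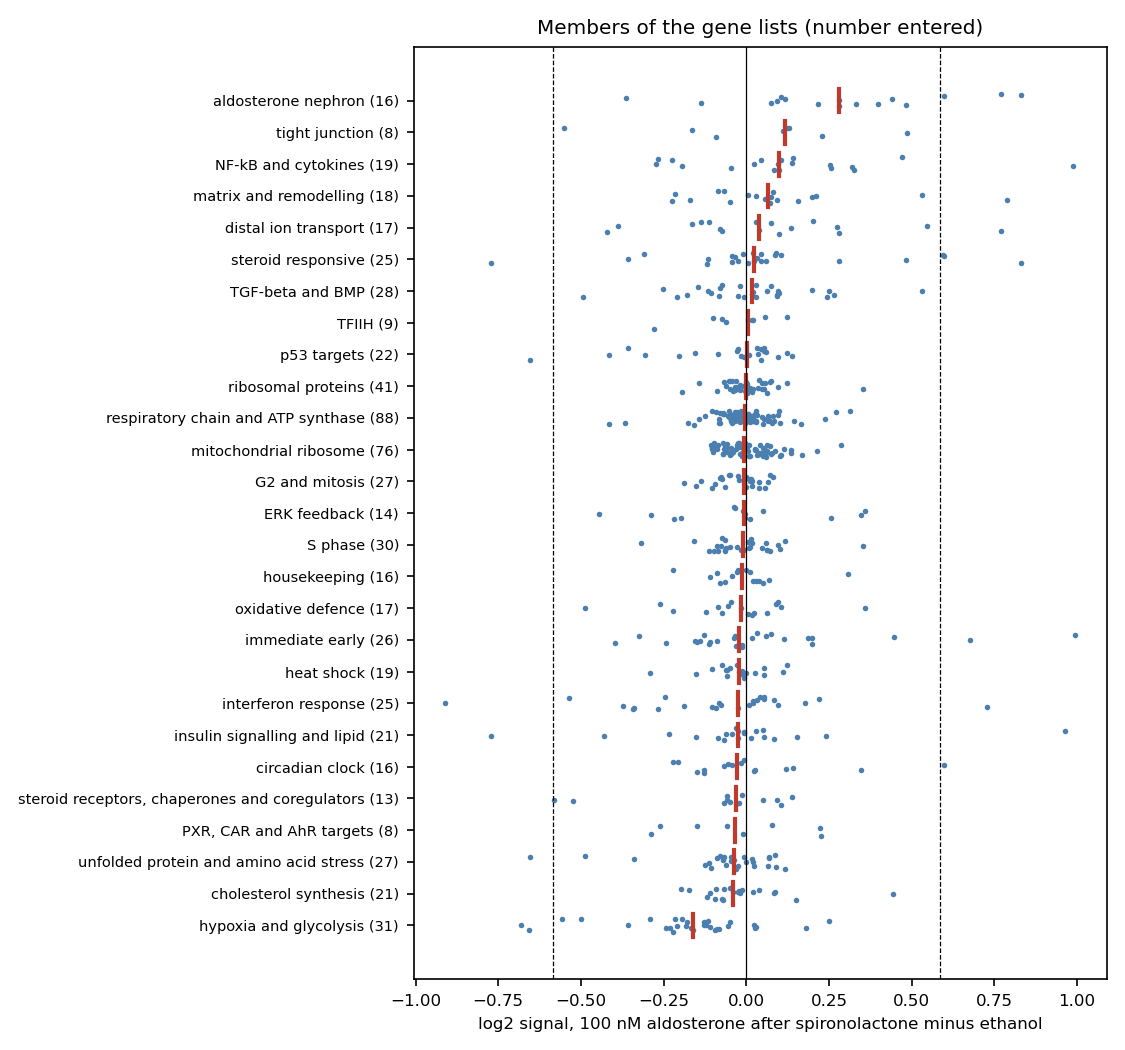
Log2 difference between the spironolactone and ethanol arrays (horizontal axis) of the entered members of 27 gene lists, 1 point per gene, with the number entered in parentheses and the median as a red bar; vertical scatter within a list carries no value. Dashed lines mark 1.5-fold; the aldosterone nephron list has the highest median, 0.28, and the hypoxia and glycolysis list the lowest, -0.16.

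The largest differences by size alone were in dim genes, and a fold whose dimmer signal was under 55.9 is given as a lower bound. Nrxn3 was 3.67-fold higher with spironolactone than with ethanol. The transcription factor Mycn was at least 2.95-fold higher, from signals of 48.7, 155, 177 and 165, but its other probe set differed by -0.55. Pnmt, the enzyme that makes adrenaline, was at least 2.92-fold higher, with 52.4, 224, 164 and 163. At Mycn and Pnmt ethanol was the low array and the 3 others were high. The vesicle tether subunit Trappc12 was 2.63-fold higher, with log2 differences of -0.10 and 1.01 in its other probe sets. The lysosomal iduronidase Idua was 2.56-fold higher, Smim27 2.52-fold, the matrix proteoglycan Podn 2.51-fold, Adam22 2.49-fold, Golga7b at least 2.40-fold, Ccdc92 2.14-fold and the trypsinogen Prss2 at least 2.14-fold. Idua had 112, 178, 165 and 287 and Podn 64.8, 97.5, 104 and 163, both highest with spironolactone and lowest with ethanol.

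On the low side after Wdr70, Rasd2, a small GTPase of the striatum, was at least 3.12-fold lower and the glutamate receptor scaffold Grip2 at least 2.97-fold lower. Grip2 had 166, 87.5, 59.3 and 18.6, highest with ethanol and lowest with spironolactone. Tmc8, related to transmembrane channels, was 2.92-fold lower, at 57.8 against 169. Slco2b1 was at least 2.63-fold lower, C2cd4c 2.47-fold, Igll1 at least 2.38-fold, the mitochondrial alanyl-tRNA synthetase Aars2 at least 2.35-fold, the hyaluronan link protein Hapln3 at least 2.35-fold, Des 2.28-fold and Tmem121 at least 2.18-fold. Aars2 had 131, 105, 89.9 and 22.4, lowest with spironolactone. Genes with clone-like names made up 3 of the 43 genes past 2-fold on that bound and are not named.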

How the data were processed

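RNA of mDCT cells was hybridised to 4 Affymetrix 3' expression arrays, 1 per treatment, with each treatment read from the array's label. The deposited unit is signal on a linear scale, made by the authors with MAS5 according to the submitters' processing notes. How MAS5 was set, its version, scaling target and any detection calls included, was not given in the sources used here. In all, the table held 45101 probe sets, 64 of them array controls. Of these, 34958 had 1 gene symbol in the platform annotation, 932 several and 9211 none; 34754 of the first kind matched RefSeq GRCm38.p6 by Entrez identifier. Probe sets without a single symbol were not used for genes. Control probe sets with a single symbol could stand for a gene, as at Gapdh.

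Differences are log2 signal on the spironolactone array minus that on the ethanol array, with no pseudocount. The filter and the 75th percentile were taken over probe sets other than controls. A fold with a dimmer signal under the filter was computed against the filter. Counts at 2-fold and 1.5-fold replace a test, since 1 array a side leaves no spread to estimate. Precision is limited by having 4 arrays.

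Genes were named as the 12 highest and 12 lowest past 2-fold with dim signals raised to the filter, the 12 of each among bright genes, those with every probe set past 1.5-fold, the 4 members of each list with the largest difference, the 8 largest gaps each way, and a set of 9 corticosteroid genes. Genes with clone-like names were not printed. The comparison, the 27 gene lists, the marker lists and the genes were chosen with earlier results of these data known. Alternatives were no filter, a stricter filter, dim signals raised to the filter, a pseudocount of 50, quantile normalization, median centring and taking the median of each gene's probe sets. The scripts were tested on simulated data. Python 3.11.15, NumPy 2.4.6, pandas 2.3.3 and matplotlib 3.10.9 were used.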

Additional observations from a re-analysis of the deposited data

How the results depend on the processing

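The counts for spironolactone against ethanol depended on how dim genes were treated. In the order 2-fold higher, 2-fold lower, 1.5-fold higher, 1.5-fold lower, spironolactone array above all others, below all others, both 100 nM arrays above the other arrays, and below them, the counts were 46, 50, 240, 225, 18, 73, 19 and 9. With no filter they were 1486, 1597, 2339, 2427, 559, 1083, 396 and 450, and with genes at or above the 75th percentile of signal only 1, 2, 14, 13, 0, 3, 1 and 0, in part because the number of genes differs. With a pseudocount of 50, which shrinks differences of dim genes by construction, they were 10, 9, 61, 80, 2, 16, 5 and 2. Raising dim signals to the filter gave 20 and 23 at 2-fold and 33 for the spironolactone array below the others, and left the other 5 counts within 1.5 times. Under quantile normalization, median centring (a shift of -0.02) and the median over probe sets all 8 counts stayed within 1.5 times. Over 186 named genes and 5 alternatives, 900 gene values moved by less than 1.5-fold and 27 by more. With the median over probe sets 3 genes past 1.5-fold reversed, Abl1 to -0.30, Desi1 to -0.033 and Tatdn1 to -0.13, Slc7a11 turned from -0.49 to 0.19, and Klf6 moved to 0.08 and Wdr70 to -0.96; Sgk1 stayed between 0.79 and 0.84 under the alternatives. Of 34 lists with an entered member, the mesenchyme list reversed, to -0.027, with no filter, while hypoxia and glycolysis stayed between -0.18 and -0.15 and the nephron list between 0.18 and 0.29. The 5 bright genes low on the 1 nM and spironolactone arrays became 3 with a pseudocount of 50 or the median over probe sets. The files carry no detection calls here, so the filter alone stands for signal over background, and values of dim genes are the least certain. No paired analysis was possible because each treatment has 1 array, and for the same reason no replicate could be left out.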
